A study of Mus musculus with 9 samples.

Results

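The genes described here are the classical splicing regulators of 2 families, the serine/arginine-rich (SR) factors and the heterogeneous nuclear ribonucleoproteins (hnRNPs), measured in the testes of Pfn3-deficient mice. Members were the protein-coding genes whose symbol is Srsf followed by a number or begins with Hnrnp. This rule found 31 of the 38674 genes of the table, 11 SR genes (Srsf1 to Srsf7 and Srsf9 to Srsf12) and 20 hnRNP genes from Hnrnpa0 to Hnrnpul2, and it used symbols and not values. Libraries were made from total RNA of the testes of male C57BL/6 mice, with a kit that reads the 3′ end of each mRNA (QuantSeq). The 9 samples formed 3 groups of 3: Pfn3+/+ (WT), heterozygous Pfn3+/- (Het) and homozygous Pfn3-/- (KO). Each sample is called an animal here, although the labels do not say that the samples came from separate mice. The tunica albuginea had been removed, so that the samples held seminiferous tubules together with the tissue between them. Pfn3 encodes profilin 3, a small actin-binding protein of developing spermatids. The mutant alleles carry deletions made with CRISPR/Cas9 and a pair of guides against the only exon of Pfn3, in every cell of the animal. The study worked with sexually mature males, and the deletion line of the sequenced animals was not given in the sources used here.

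SR proteins bind exonic enhancers through RNA recognition motifs and recruit the spliceosome through tails rich in arginine and serine, which kinases of the SRPK and CLK families phosphorylate. The hnRNPs coat nascent transcripts and often act against SR proteins at the same splice sites. The testis is known for an unusually large amount of alternative splicing, and meiotic and post-meiotic germ cells switch many splicing programmes on and off.

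Values are normalized counts, that is, reads of a gene divided by 1 size factor per animal. The deposited values gave back whole reads, with 3375546 to 4287335 reads counted on genes per animal, and 3 reads, taken as the limit of detection, correspond to 2.58 to 3.71 normalized counts. Each read comes from the end of a transcript, so that counts were not divided by gene length, and an order of levels between genes assumes equal capture of their 3′ ends. The targeted gene Pfn3 gave normalized counts of 592, 383 and 373 in WT, 136, 339 and 326 in Het and 74.7, 215 and 279 in KO testes, a difference between KO and WT of -1.41 (SE 0.52, adjusted p = 0.610, limma) on the log2 scale. Reads outside a deletion are still counted, so this level does not check the genotype. WT replicate 1 and Het replicate 1 stood apart from the other libraries. Over 14865 genes WT replicate 1 correlated with the other animals at r = 0.750 to 0.783 (median 0.778). Het replicate 1 correlated at 0.750 to 0.827 (median 0.806). KO replicate 2 came next with a median of 0.841, beside medians of 0.862 to 0.881 in the remaining libraries.

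Within the SR family Srsf9 was the member whose level separated KO from WT most widely. It codes for a small SR protein with a pair of RNA recognition motifs, and its nearest relative by sequence was Srsf1, the founding member of the family. In the reference annotation (GENCODE M21, GRCm38) Srsf9 (ENSMUSG00000029538) lies on the forward strand at chr5:115327177-115333080 and overlaps no other annotated gene. Of the 10 other SR genes, Srsf1 held the closest 50 bases of coding sequence, with 43 of 50 identical, followed by Srsf5 with 40, Srsf6 with 39 and Srsf4 with 38. Srsf2, Srsf3 and Srsf7 each matched at 36 of 50 bases, Srsf10 at 31 and Srsf11 and Srsf12 at 30. The closest stretch is printed at the read length of 50 bases, and it shows how far apart the pair remains where its coding sequence is most alike. This stretch is not at the transcript end, where these libraries are read, so it does not test how reads were assigned. Capitals mark the bases that differ, and both stretches are in exon 1 of 4 on the forward strand, at chr5:115327393-115327442 for Srsf9 and chr11:88047926-88047975 for Srsf1 (GRCm38, coding bases 85 to 134 and 88 to 137).
Srsf9: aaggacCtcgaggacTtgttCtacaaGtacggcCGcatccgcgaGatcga
Srsf1: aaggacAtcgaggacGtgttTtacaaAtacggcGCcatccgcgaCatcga
None of the 322 windows of 50 bases in the last 300 bases of the Srsf9 transcripts, where these libraries are read, occurred in a transcript of another annotated gene.

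Srsf9 was well expressed in WT testis and close to absent in KO testis. The paper had already reported Srsf9 as lower in KO, from its RNA-seq analysis and from qRT-PCR on testis RNA. The WT animals gave 262, 318 and 285 normalized counts, from 212, 330 and 295 reads. The KO animals gave 2.58, 1.93 and 0.894 normalized counts, from 3, 2 and 1 reads. All 3 KO animals were therefore at or under the limit of detection, and the groups did not overlap. Against that limit (2.72 normalized counts per KO library) Srsf9 was at least 106-fold lower in KO than in WT. In the limma fit the log2 fold change on the log2(value + 1) scale was -6.74 (SE 0.33), with an adjusted p of 0.00776. Srsf9 was the single member called, that is, with an adjusted p under 0.05 and an absolute log2 fold change over 1.5, out of 29 tested, where 0.0352% of all 14223 tested genes were called. Srsf4 and Srsf12 did not reach 10 normalized counts in 3 animals and were not tested. DESeq2 on the recovered reads (adjusted p = 2.91e-24) and edgeR (0.0103 and 0.0114) also called Srsf9. So did limma with other scalings, filters and pseudocounts (adjusted p = 0.00229 to 0.0155). The call was lost when WT replicate 2 (adjusted p = 0.0996), WT replicate 3 (0.0798) or KO replicate 2 (0.0657) was left out, at log2 fold changes of -6.66, -6.74 and -6.79 in turn. In each of these fits 0 of all 14223 genes were called. The Srsf9 call was also lost in a fit of all 9 animals (adjusted p = 0.533), whose shared spread includes that of the Het animals.

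The Het animals did not form 1 level of Srsf9. Het replicates 1 and 3 gave 425 and 358 normalized counts, above every WT animal, and Het replicate 2 gave 3.72, from 4 reads. Thus 1 of 3 Het animals was near the KO level and the other two were near the WT level, with no animal in between. The mean was 262 ± 226 (SD, n = 3) in Het against 289 ± 28.1 in WT and 1.80 ± 0.85 in KO. The difference of Het from WT was -1.69 on the log2 scale (SE 1.72, adjusted p = 0.792), and without Het replicate 2 it was 0.44 (adjusted p = 0.728), so that this 1 library set its sign. For KO against Het, Srsf9 had only 2 animals with at least 10 normalized counts and was not tested. With a filter of 2 animals its log2 fold change was -5.05 (SE 1.74, adjusted p = 0.971). Among the 14865 genes that reached 10 normalized counts in 3 animals or more, 72 spread more widely among the Het animals on the log2 scale than Srsf9 did (6.50, beside a median of 0.64).

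Srsf9 made up 6.94%, 9.08% and 7.46% of the SR reads in the WT animals, with exact 95% binomial intervals of 6.07 to 7.90%, 8.17 to 10.1% and 6.66 to 8.33%. In Het the shares were 10.9%, 0.101% and 11.5%. In KO they were 0.0831%, 0.0504% and 0.0297%, and the highest upper bound was 0.243%. Bounds cover counting error only. The 3 KO intervals and that of Het replicate 2 (0.0275 to 0.258%) overlapped, and all lay far under those of the other 5 animals. Leaving Srsf9 out, the SR genes summed to 3412 ± 196 normalized counts in WT testes, to 3300 ± 493 in Het testes and to 3316 ± 455 in KO testes, which differed by less than the spread between animals.

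**Figure D1:**
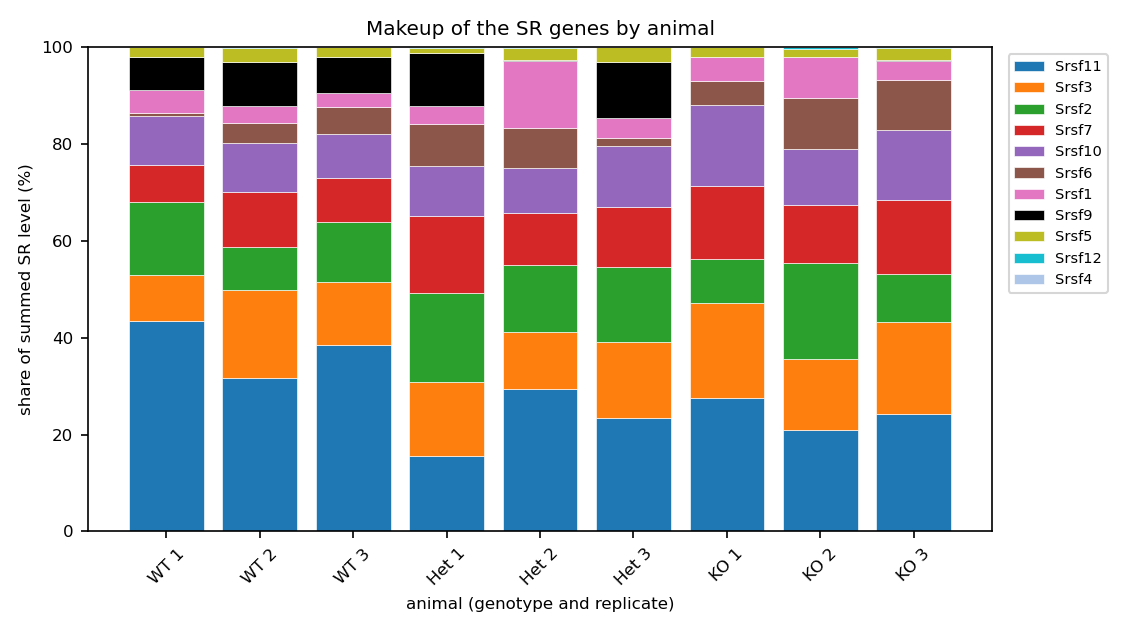
Stacked bars show the share of each SR gene in the summed SR level (%) of each of the 9 animals. The black segment, Srsf9, is present in the 3 WT animals and in Het 1 and Het 3 (6.94% to 11.5%) and is too thin to see in Het 2 and the 3 KO animals (0.0297% to 0.101%).

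Srsf1 gave 177, 126 and 109 normalized counts in WT, 145, 514 and 131 in Het and 150, 327 and 122 in KO. Its highest value was in Het replicate 2, the Het animal with 4 Srsf9 reads, while KO replicates 1 and 3 lay within the WT range. The log2 fold change of KO against WT was 0.43 (SE 0.42, adjusted p = 0.695), and 0.01 without KO replicate 2. The sum of Srsf9 and Srsf1 was 426 ± 27.9 in WT, 525 ± 40.9 in Het and 201 ± 111 in KO. Gm11508, a long non-coding RNA annotated across Srsf1 on the opposite strand, gave 4.82 to 18.6 normalized counts in the WT animals, 7.41 to 12.3 in the Het animals and 0 in all 3 KO animals.

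The genes next to Srsf9 on chromosome 5 did not share its pattern. Gatc, which lies on the other strand with its 3′ end 159 bp from the end of Srsf9 and codes for a subunit of the mitochondrial glutamyl-tRNA amidotransferase, gave 65.2 to 92.7 normalized counts over the 9 animals. Triap1, a small regulator of apoptosis, gave 81.1 to 114, and Cox6a1, a cytochrome c oxidase subunit, 1098 to 1539. On the other side Gm13830 gave 90.9 to 324 and Dynll1, a dynein light chain, 748 to 2815. Coq5, an enzyme of ubiquinone synthesis, gave 67.7 to 143 in 8 animals and 7.56 in Het replicate 1, where Srsf9 was at its highest.

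**Figure D2:**
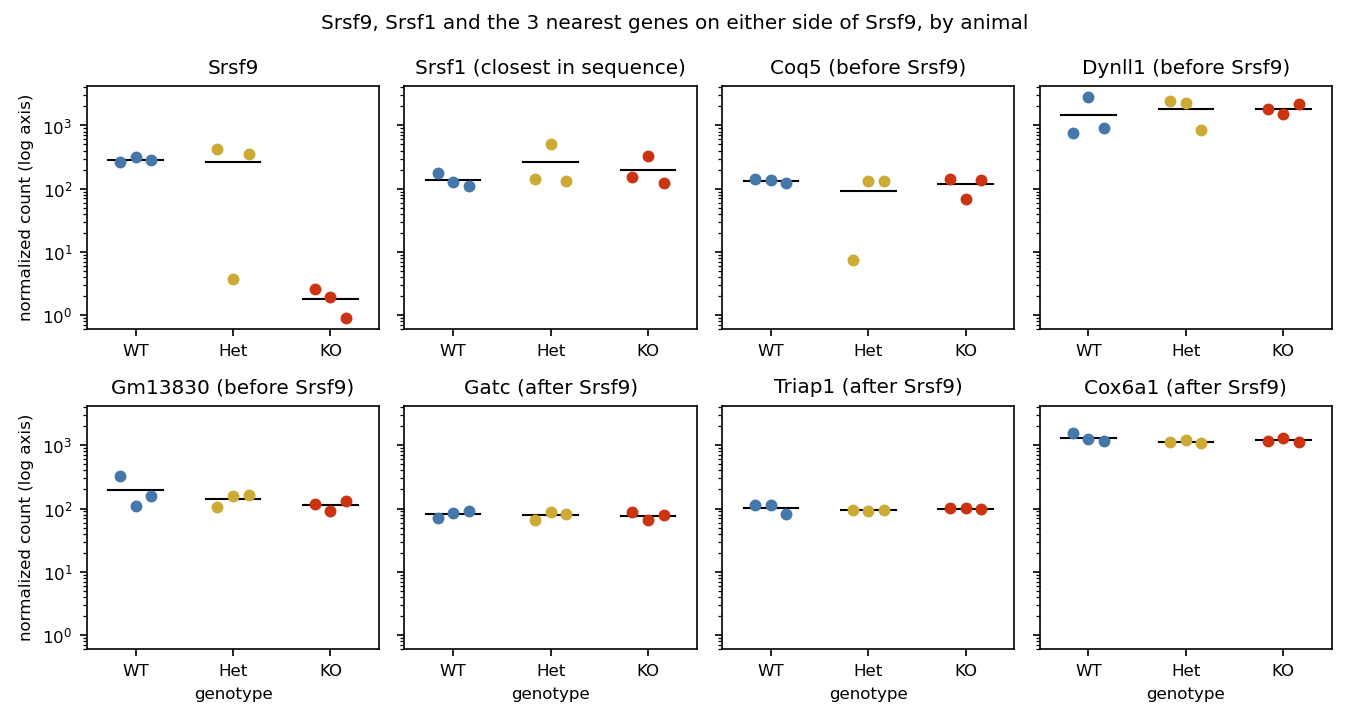
Each point is 1 animal on a log axis of normalized counts, by genotype, and lines are means. Srsf9 falls to 0.894 to 3.72 in the 3 KO animals and Het 2, while Gatc stays between 65.2 and 92.7 and Triap1 between 81.1 and 114 in all 9.

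Among the genes whose profile over the 9 animals was most like that of Srsf9 were Myom2 (Pearson r = 0.93), Ilvbl (0.92), Ebag9 (0.92) and Bicd1 (0.88), out of 14864 genes compared on the log2(value + 1) scale. These r values share the libraries and their genotype split and are descriptions. Ilvbl came closest to a switch, with 83.0, 37.6 and 33.8 normalized counts in WT, 89.8, 8.38 and 49.7 in Het and 1.72, 0.967 and 6.26 in KO. Ebag9 ranged only from 105 to 155, and Myom2 was low throughout, at 5.59 to 15.9.

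None of the other SR genes was called in any comparison. Srsf11 had the highest mean of the family, followed by Srsf3, Srsf2 and Srsf7. Srsf3, a short SR protein also active in mRNA export, gave 357, 641 and 490 normalized counts in WT, 593, 436 and 492 in Het and 610, 564 and 572 in KO, and the groups overlapped. Srsf2 gave 573, 310 and 478 in WT, 712, 506 and 479 in Het and 278, 761 and 297 in KO, so that KO replicate 2 was apart from the other KO animals. All 404 of its end windows also lie on the opposite strand of other transcripts, and Mfsd11, the table gene annotated across it on that strand, gave 547, 198 and 269 in KO, lowest where Srsf2 was highest.

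Srsf7, whose protein carries a zinc knuckle, was at 290, 395 and 349 in WT, 625, 397 and 383 in Het and 466, 455 and 462 in KO. Every KO animal lay above every WT animal, but the difference did not pass the test (log2 fold change 0.43, SE 0.19, adjusted p = 0.610). Srsf10, known for its activity as a splicing repressor when dephosphorylated, had 343 to 376 in WT, 344 to 395 in Het and 431 to 520 in KO, above both other groups (KO against WT 0.38, SE 0.17, adjusted p = 0.612; KO against Het 0.31, SE 0.15, adjusted p = 0.973). Its range over the 9 animals, 0.60 on the log2 scale, was among the narrowest of the members.

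Srsf6, a larger SR protein, varied widely within each genotype. It gave 24.8, 144 and 211 normalized counts in WT, 344, 309 and 47.6 in Het and 154, 400 and 313 in KO, with a difference between KO and WT of 1.54 (SE 0.84, adjusted p = 0.629). Without WT replicate 1 this was 0.62 and without WT replicate 3 it was 2.14. Srsf5 ranged from 34.0 to 100. Srsf4 had at most 1.93 normalized counts and was at or under 3 reads in all 9 animals. Srsf12 gave 2.48, 3.86 and 0 in WT, 9.45, 4.66 and 3.17 in Het and 0, 14.5 and 7.15 in KO, with 4 animals at or under 3 reads, so that no difference was detectable at this depth.

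**Figure D3:**
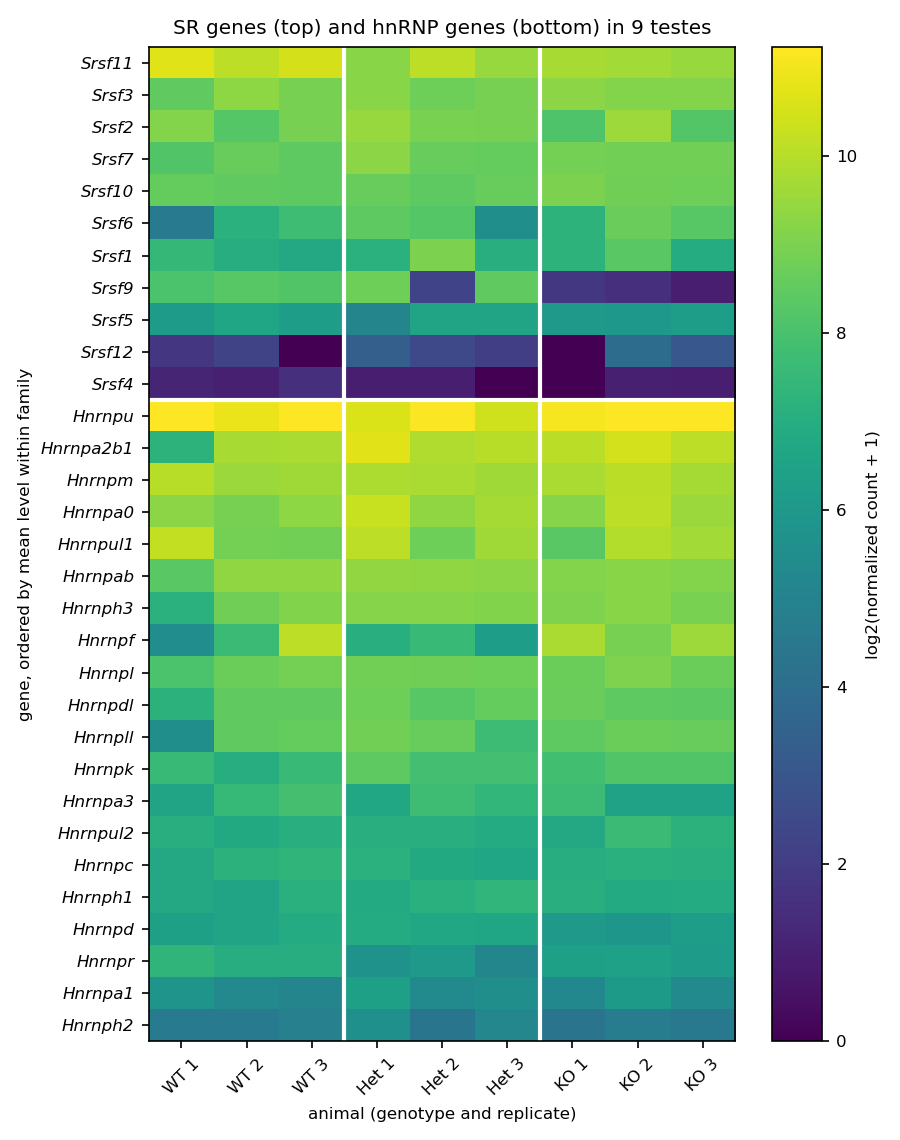
Colour gives log2(normalized count + 1) for each of the 31 members (rows, SR above and hnRNP below the white line, by mean level) in each of the 9 animals (columns). The dark cells of Srsf9 in Het 2 and the 3 KO animals stand out from the Srsf9 row, and WT 1 is darker than its neighbours in Srsf6, Hnrnpa2b1 and Hnrnpll.

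All 20 hnRNP genes passed the filter in each comparison. Hnrnpu, a scaffold attachment factor of nuclear RNA and chromatin, had the highest mean, with 2388, 1888 and 2354 normalized counts in WT, 1521, 2318 and 1345 in Het and 2134, 2396 and 2369 in KO. Hnrnpm, a regulator of alternative exons, was the most even of the members, at 1051, 736 and 797 in WT, 914, 903 and 780 in Het and 900, 1078 and 833 in KO. Hnrnpa0, an hnRNP that binds AU-rich mRNAs, gave 614, 490 and 645 in WT, 1237, 652 and 828 in Het and 583, 1090 and 750 in KO. Hnrnph2, an X-linked gene, had the lowest mean, with 23.5, 24.1 and 29.0 in WT, 48.2, 19.6 and 36.0 in Het and 18.9, 26.1 and 22.3 in KO.

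Some of the spread came from single libraries. Hnrnpa2b1, which codes for a pair of abundant RNA-binding proteins, gave 151, 870 and 880 normalized counts in WT, 1714, 948 and 1036 in Het and 1068, 1396 and 1100 in KO. Hnrnpll, known as a switch of Cd45 splicing in lymphocytes, gave 47.0, 359 and 384 in WT, 454, 392 and 204 in Het and 351, 410 and 387 in KO. In both genes WT replicate 1 was far under the other 8 animals. The KO values of Hnrnpll lay near those of WT replicates 2 and 3, while every KO value of Hnrnpa2b1 lay above them. WT replicate 1 held the lowest value of 10 of the 31 members, among them Hnrnpab, Hnrnph3, Hnrnpl and Hnrnpdl. The same library held the lowest value of 28.6% of those 14865 genes. Of the 31 members 6 ranged over more than 3 on the log2 scale (Srsf6, Srsf9, Srsf12, Hnrnpa2b1, Hnrnpf and Hnrnpll). The median range was 1.45, beside 1.49 over the 14865 genes.

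The first question was whether loss of both Pfn3 alleles went with a change of splicing factor mRNA. For KO against WT, 4 of 29 members had an unadjusted p under 0.05, beside 8.07% of all genes. Another 3 members besides Srsf9 lay lower in every KO animal than in every WT animal (Srsf11, Hnrnpr and Hnrnpd), so that 4 of 29 did so where 10.5% of all genes did. Higher in every KO animal were 4 of 29 members (Srsf7, Srsf10, Hnrnpk and Hnrnpa2b1), beside 9.41% of all genes. The median log2 fold change of the members was 0.18 and that of all genes 0.02. Without KO replicate 2 these medians were 0.04 and 0.02, and without WT replicate 1 they were 0.09 and -0.03. By family the median was 0.27 over 9 SR genes and 0.17 over 20 hnRNP genes. Of the hnRNP genes 15 had a positive sign (75%), beside 51.4% of all genes.

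Srsf11 codes for an SR-related protein also known as p54, which contacts U2AF. Its WT values were 1644, 1109 and 1471 normalized counts, its Het values 603, 1089 and 724 and its KO values 855, 806 and 731. Every Het and KO animal lay under every WT animal, although Het replicate 2 was only just lower than WT replicate 2. The log2 fold change was -0.80 (SE 0.20, adjusted p = 0.604) for KO against WT and -0.83 (SE 0.28, adjusted p = 0.779) for Het against WT, comparisons that share the WT animals. On the reverse strand at chr3:158010473-158036639, Srsf11 overlaps Gm43362 on the same strand, a gene with 26.5 to 59.3 normalized counts.

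Hnrnpr, which codes for an RNA-binding protein that carries β-actin mRNA in neurons, gave 163, 127 and 128 normalized counts in WT, 53.9, 66.1 and 34.9 in Het and 83.3, 86.1 and 71.5 in KO. The 3 genotypes formed separate ranges, with Het lowest and KO between. Its log2 fold change was -0.79 (SE 0.21, adjusted p = 0.610) for KO against WT, -1.46 (SE 0.30, adjusted p = 0.779) for Het against WT and 0.67 (SE 0.28, adjusted p = 0.973) for KO against Het. None of these passed the threshold, and of its end windows 9.52% also occur in a pseudogene.

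Hnrnpk, a poly(C)-binding hnRNP, gave 196, 127 and 193 normalized counts in WT, 350, 236 and 231 in Het and 225, 291 and 286 in KO. Both mutant groups lay above WT, by 0.65 (SE 0.25, adjusted p = 0.610) for KO and 0.66 (SE 0.28, adjusted p = 0.779) for Het on the log2 scale. Processed copies share 33.9% of its end windows, so that its counts are uncertain.

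For Het against WT, 0 of 29 members were called, beside 0% of the 14216 genes tested. At an unadjusted p under 0.05 there were 2 of 29 members (Hnrnpr and Srsf11), beside 3.34% of all genes and 475 genes in number, and DESeq2 on the recovered reads called 31 genes and 0 members. The ranges of 3 members (Hnrnpk, Hnrnpa0 and Hnrnpa2b1) lay wholly higher in Het, beside 6.76% of all genes, and those of 2 wholly lower, beside 6.49%. Hnrnpa0 differed by 0.59 (SE 0.28, adjusted p = 0.779). With WT replicate 1 and Het replicate 1 both left out, 0 members were called and the members' median log2 fold change went from 0.24 to 0.01.

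For KO against Het, 0 of 28 members were called by limma, beside 0.0558% of the 14343 genes tested, and 3 of 28 had an unadjusted p under 0.05, beside 3.56%. Higher in every KO animal were 3 members (Hnrnpf, Hnrnpr and Srsf10), beside 5.12% of all genes, and lower in every KO animal were 2 (Hnrnpd and Hnrnpab), beside 4.9%. Hnrnpd, also known as AUF1, a factor in the decay of AU-rich mRNAs, gave 83.0, 94.5 and 119 normalized counts in WT, 118, 102 and 101 in Het and 66.1, 60.9 and 75.1 in KO. The KO animals lay under both other groups, with a log2 fold change of -0.66 (SE 0.18, adjusted p = 0.973) against Het and -0.53 (SE 0.23, adjusted p = 0.610) against WT. Hnrnpu differed by 0.45 (SE 0.22, adjusted p = 0.973) and its groups overlapped.

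Hnrnpf, whose protein binds G-rich sequences, had the largest fitted difference between KO and Het among the 28 members tested, which leave out Srsf9. Its values were 133, 188 and 77.3 normalized counts in Het and 891, 491 and 771 in KO, while the WT animals spread over 44.6, 199 and 1098. KO thus lay wholly above Het, and WT spanned both. The log2 fold change of KO against Het was 2.47 (SE 0.38), with an unadjusted p of 0.000577 and an adjusted p of 0.376 (limma). DESeq2 on the recovered reads called it, at 2.44 and an adjusted p of 4.75e-06, and edgeR did not. Of the end windows of Hnrnpf 46.8% occur in 7 pseudogenes, which were removed from the table, and 4933440N22Rik, annotated across it on the opposite strand, gave 112 to 240 in WT, 104 to 254 in Het and 144 to 203 in KO.

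**Figure D4:**
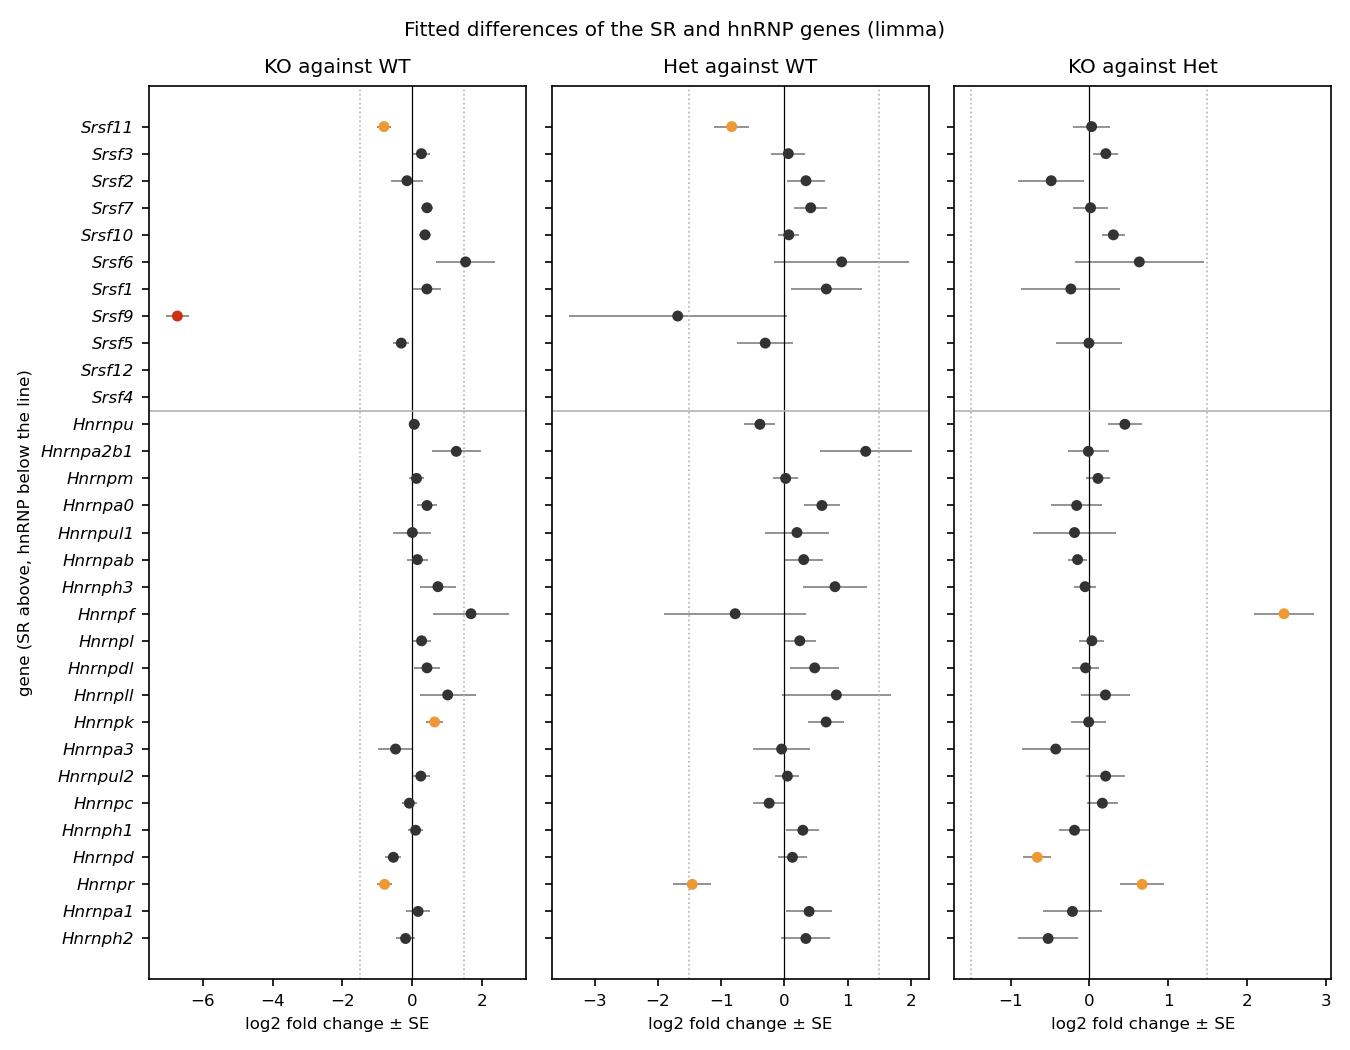
Points are log2 fold changes from limma with bars of 1 SE, for each member tested in the 3 comparisons of genotypes, and dotted lines mark 1.5 in either direction. The red point is Srsf9 (-6.74), the single member called, and orange points are the other members with an unadjusted p under 0.05.

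**Figure D5:**
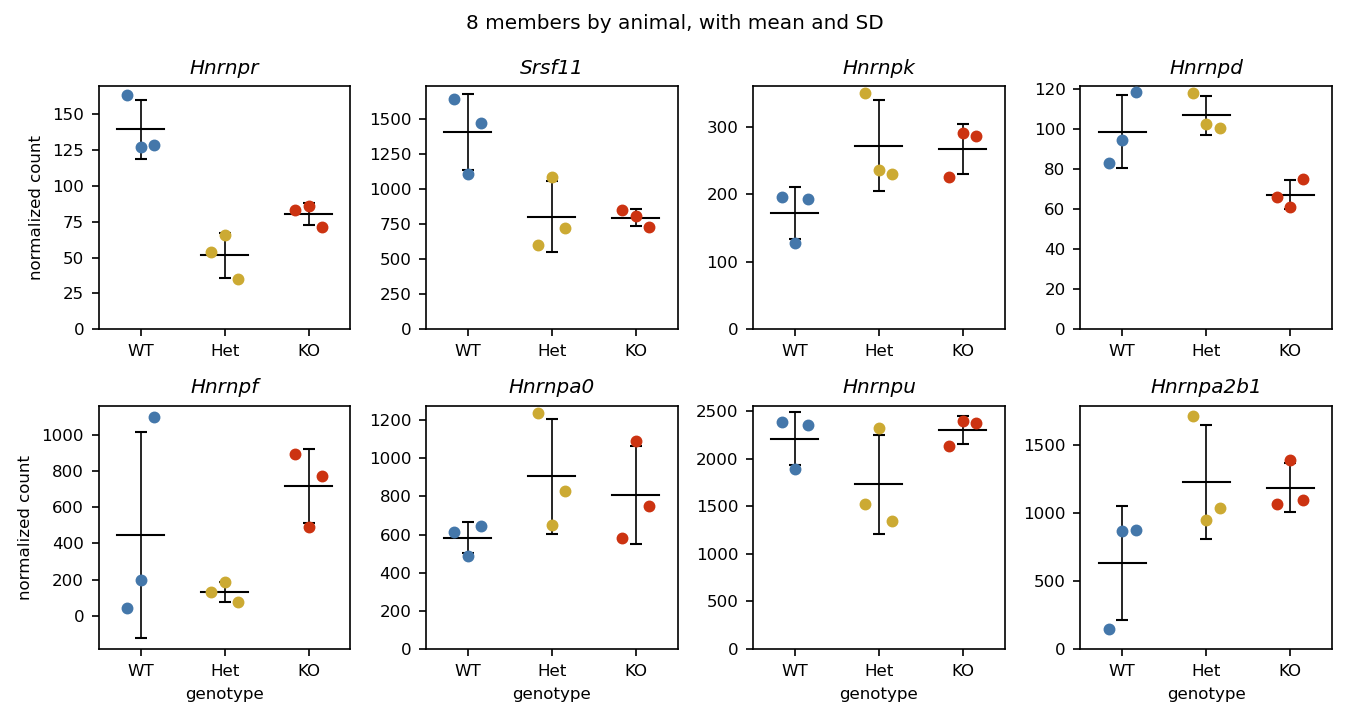
Points are single animals, and lines and bars are the mean and SD of each genotype in normalized counts on axes from 0 (the SD of Hnrnpf in WT reaches below 0). Hnrnpr and Srsf11 are lower in all Het and KO animals than in WT, Hnrnpd is lower in KO than in both other groups, and Hnrnpf in WT spans the values of Het and KO.

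The 20 hnRNP genes summed to 8322 ± 1321 normalized counts in WT testes, to 9097 ± 1180 in Het testes and to 9998 ± 918 in KO testes, and the 11 SR genes to 3701 ± 170, 3563 ± 407 and 3318 ± 455 (SD, n = 3 each). Together the members took 0.265% to 0.453% of the reads of an animal. The ratio of SR to hnRNP level, which does not depend on scaling, was 0.518, 0.446 and 0.389 in WT, 0.375, 0.416 and 0.386 in Het and 0.338, 0.349 and 0.306 in KO. The KO ratios lay under all WT and Het ratios. With Srsf9 left out of the SR sum the ratios were 0.482, 0.406 and 0.360 in WT, 0.334, 0.416 and 0.342 in Het and 0.338, 0.349 and 0.306 in KO, so that KO still lay under WT but overlapped Het. Scaled by the reads counted per library, the summed levels of KO relative to WT were 1.04 for SR and 1.39 for hnRNP genes, beside 0.897 and 1.20 with the deposited factors. That scaling moved the median log2 fold change of all genes from 0.02 to 0.22.

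In the same libraries the summed marker genes of 4 germ cell stages had separate ranges in KO and WT, a difference that was not tested. The Het range overlapped that of WT for every stage except elongating spermatids. The paper reported no significant difference between the groups for its own marker genes of spermatogonia, elongating spermatozoa, Sertoli cells and Leydig cells. It named no markers of spermatocytes or round spermatids. The summed level of 5 elongating spermatid markers was 239227 to 254062 normalized counts in WT, 183381 to 220848 in Het and 126506 to 203742 in KO, and that of 5 round spermatid markers was 4724 to 5323, 3693 to 4829 and 2694 to 4064. The 5 spermatocyte markers gave 1586 to 1892 in WT, 1244 to 3556 in Het and 2580 to 3218 in KO, and the 5 spermatogonial markers 473 to 773, 711 to 1039 and 804 to 922. In whole testis fewer cells of a type and less RNA per cell cannot be told apart, and the part of these markers in the differences of the splicing factors was not tested. No marker of these 4 stages was at 0 in all animals. The sums of the Sertoli, Leydig, red blood cell, macrophage and epididymis markers overlapped between WT and KO, with Amh, Lcn5 and Adam7 at 0 in all 9 animals.

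The partners of the SR and hnRNP proteins were read from 5 lists, and no gene of any list was called by limma in any comparison, beside the backgrounds given above. Of the kinases, the phosphatase and the importers of SR proteins, 13 of 14 were tested in KO against WT, with a median log2 fold change of 0.18. Among them Clk1, a nuclear kinase of SR proteins, gave 86.7, 63.7 and 63.7 normalized counts in WT, 117, 77.3 and 130 in Het and 110, 139 and 132 in KO, with the KO animals above all WT animals (0.83, SE 0.23, adjusted p = 0.610). Of 17 SR-related proteins 15 were tested, with a median of 0.21. Tra2a, an activator of exon inclusion, gave 494, 296 and 366 in WT, 471, 360 and 453 in Het and 597, 725 and 549 in KO (0.71, SE 0.25, adjusted p = 0.610).

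Also from the SR-related list, Acin1, a subunit of a complex deposited at exon junctions, gave 914, 803 and 768 normalized counts in WT, 433, 893 and 474 in Het and 565, 430 and 386 in KO (-0.86, SE 0.21, adjusted p = 0.583). Clasrp, a CLK-associated protein, was lower in every KO animal (-0.76, SE 0.29, adjusted p = 0.610), and Srek1 in every Het animal than in WT (-1.06, SE 0.36, adjusted p = 0.779). Of 18 early spliceosome factors 16 were tested. Luc7l, a relative of a U1 snRNP component of yeast, gave 187 to 212 in WT, 101 to 177 in Het and 75.5 to 137 in KO, lower in both mutant groups (-0.94, SE 0.27, adjusted p = 0.610 in KO).

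Of the 20 hnRNP family members under other names 17 were tested, with a median of -0.13 in KO against WT. Ptbp1 and Ptbp3, which repress exons next to pyrimidine tracts, had positive log2 fold changes in KO (0.96, SE 0.38, and 1.37, SE 0.49, both at an adjusted p of 0.610), and their groups overlapped. Of the 25 other splicing regulators 20 were tested, and 0 had an unadjusted p under 0.05 in any of the 3 comparisons.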

How the data were processed

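RNA-seq was analysed from 1 table of 9 testis samples (3 per genotype, grouped by the labels). Per the labels and the methods of the study, the authors trimmed reads with Trim Galore 0.4.5, aligned them to GRCm38 with HISAT2 2.1, used StringTie 1.3.3 for assembly and gene counts, removed pseudogenes and used DESeq2. The deposited signal values are counts per gene over a size factor for each library. Whole reads were recovered for 100% of the nonzero values (tolerance 1e-06 reads). Replicates are separate samples in the labels, and where they are not separate animals the p-values measure technical spread.

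Each comparison was fitted over all genes that reached 10 normalized counts in 3 or more of the samples compared, with limma 3.58.1 (eBayes with trend, R 4.3.3) on log2(value + 1), which understates changes of low genes, and with Benjamini-Hochberg adjustment. Alternatives were edgeR 4.0.16 and DESeq2 1.42.0 on recovered reads, other scalings, filters and pseudocounts (0.1, 0.5 and 5), a joint fit, a replicate block and leaving out each animal. The functions were tested on simulated data. Genes overlapping on either strand were not separated, since strand use in counting was not given in the sources used here.

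Members and lists were chosen with earlier results of these data known. Values per animal, ranges or maxima were given for Srsf9, members called and the 4 members with the smallest p per comparison. The same holds for members with a log2 range over 3, and for the 4 highest means and the lowest mean per family. The rule also named the 3 nearest genes on either side of Srsf9, given mostly as ranges. It named the 5 genes most like Srsf9 as well, given by r and some with values. Some genes that the lists or this rule name are not reported here. Other members were named where their groups did not overlap or where they complete the family. Gene positions and coding sequences are from GENCODE M21. U2af1l4, Syncrip and Tia1, on the lists, were not analysed here.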

Additional observations from a re-analysis of the deposited data

How the results depend on the processing

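In all, 409 alternative values were computed for the counts of members called, the summed levels and the fold changes of members named with a test. Of these, 394 kept their direction and their side of the threshold, or stayed close to the reported value. Most of these members were not called in the main fit, so that staying uncalled with the same sign counted as no change. Among the rest, 8 counts or sums moved, 5 fold changes lost their call, 1 gained a call and 1 reversed. All 5 lost calls were Srsf9 in KO against WT, which kept its call in 13 settings. The reversal was Srsf9 in Het against WT without Het replicate 2 (0.44, within a range of -2.81 to 0.44 with each animal left out in turn). For KO against WT the count of members called, 1, was 0 in a fit of all 9 animals and 0 to 1 when single animals were left out, and the log2 fold change of Srsf9 was -6.74 in that joint fit (adjusted p = 0.533) and -6.94 to -6.48 with each animal left out in turn. For KO against Het, DESeq2 called 1 member, Hnrnpf (2.44). Scaling by reads counted per library gave KO to WT ratios of 1.04 for the summed SR genes and 1.39 for the summed hnRNP genes. The number of all genes called in KO against WT was 5 with limma and edgeR, 100 with DESeq2, and 0 to 55 when single animals were left out (55 without WT replicate 1). In KO against Het it was 8 with limma and 38 with DESeq2, and 40 without Het replicate 2. The fit without WT replicate 1 and Het replicate 1 was added after seeing the data. With 3 animals per genotype and 3 reads as the limit, differences of Srsf4 and Srsf12 could not be measured.

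The replicate numbers shared by the genotypes were not taken to pair the animals, since nothing in the labels says that they do. Deviations of same-numbered animals correlated at -0.12 to -0.03 in KO and WT and at -0.14 to 0.07 in KO and Het. In Het and WT they correlated at 0.17, 0.21 and -0.03. There Het replicate 1 correlated at -0.14 with WT animals of other numbers, and Het replicate 2 at -0.25 to 0.20. Whether same-numbered animals share an effect was not tested. With the replicate number as a block, 0 members and 0 genes were called for KO against WT, and Srsf9 was at -6.74 (adjusted p = 0.218).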
